A study of Homo sapiens with 6 samples.

Results

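The genes described here are the 10 genes of the insulin-like growth factor 2 (IGF2) axis that were looked up by symbol in RNA-sequencing profiles of HGC-27, an established line of human gastric cancer cells: the ligand gene IGF2, its receptor gene IGF2R, the secreted binding proteins IGFBP2, IGFBP3, IGFBP4, IGFBP6 and IGFBP7, and the IGF2 mRNA-binding proteins IGF2BP1, IGF2BP2 and IGF2BP3. All 10 symbols were found among 62443 genes. The study compared 3 Con libraries, untreated according to the labels and given the peptide buffer according to the methods of the study, with 3 libraries of cells treated with GLUP. GLUP is a cyclized peptide built on the TEAD4-binding motif of VGLL4 and was designed to gather TEAD4, the DNA-binding partner of YAP in the Hippo pathway, into condensates. All cells were from the same line, grown with serum, and the duration of treatment is not given here because the study states it in more than one way.

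IGF2 is a secreted growth factor that signals through the IGF1 receptor and the insulin receptor. IGF2R, the cation-independent mannose 6-phosphate receptor, takes IGF2 up for degradation and does not transmit its growth signal. IGF binding proteins hold IGFs outside the cell and set how much of them reaches the receptors, and several also act without IGF. The IGF2BP proteins have a similar name but a different role: they are cytoplasmic RNA-binding proteins that bind IGF2 mRNA and many other transcripts and prolong their life or steer their translation. IGFBP3 is known as a TEAD target, which is why these genes bear on a comparison of cells with and without GLUP.

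No difference between Con and GLUP in any of the 10 genes passed the test. The deposited values are FPKM (fragments per kilobase of gene per fixed number of mapped fragments), a level corrected for gene length and library total. Testing required an average of 1 FPKM or more across the libraries, which 7 of the 10 genes reached and IGF2, IGF2R and IGF2BP2 did not. The number with an adjusted p under 0.05 was 0, where limma called 0 of 7406 genes tested (0%). At an unadjusted p under 0.05 the number was also 0, where 21.7% of the genes tested passed, 4.46% as higher in GLUP and 17.2% as lower. After a trend in GC content and transcript length had been removed from each library, it was again 0 of the members at the adjusted threshold, against 2 of 7388 genes (0.0271%). Of the 7 genes, 4 had a lower mean in GLUP and 3 a higher one, and their median log2 fold change was -0.19, compared with -0.23 over all genes tested, 65.5% of which were lower. The GLUP libraries lay below all Con libraries for 1 of the 7, IGFBP7, where 22.7% of all tested genes did so, and above them for 0, where 7.55% did so.

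A few facts about the libraries bear on every value below. Library totals ran from 909735 to 965147 FPKM, the number of reads behind them is unknown, and mitochondrial genes held 21.9% to 29.7%. Con replicate 2 stood apart, its mean Pearson correlation across genes with the remaining 5 being 0.898, whereas the others had means of 0.954 to 0.964. Of the gastric markers TFF1, TFF2, MUC5AC, MUC6, GKN1 and PGC, 5 of 6 were at 0 in every library and MUC5AC did not exceed 0.0128 FPKM, so the profile carried no mark of stomach mucosa. EPCAM (at most 0.124 FPKM) and CDH1 (at most 0.0799 FPKM) were also near 0, while the mesenchymal gene VIM ranged from 222 to 387 FPKM. The summed levels of both marker lists stood apart between the groups: 5 epithelial markers summed to 2.97 to 3.70 FPKM in Con and 5.18 to 6.06 FPKM in GLUP, and 5 mesenchymal or fibroblast markers to 366 to 433 FPKM in Con and 242 to 364 FPKM in GLUP. Of single tested genes, 22.7% were lower and 7.55% higher in GLUP with no overlap. A few genes carried the marker sums, KRT8, KRT18 and KRT19 the first and VIM the second. VIM by itself overlapped between the groups, at 335.6 FPKM in Con replicate 1 and 336.0 FPKM in GLUP replicate 1. Single markers also went the other way: CDH1 was at 0 in all GLUP libraries, and PDGFRB was higher in every GLUP library (at least 0.184 FPKM) than in any Con library (at most 0.140 FPKM). Their part in the results was not tested. Markers of blood (at most 1.52 FPKM summed), liver (at most 0.813) and endothelium (at most 0.0045) were low, and ALB was at 0. In bulk RNA of this kind, fewer cells of a type and less RNA per cell cannot be told apart.

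**Figure D1:**
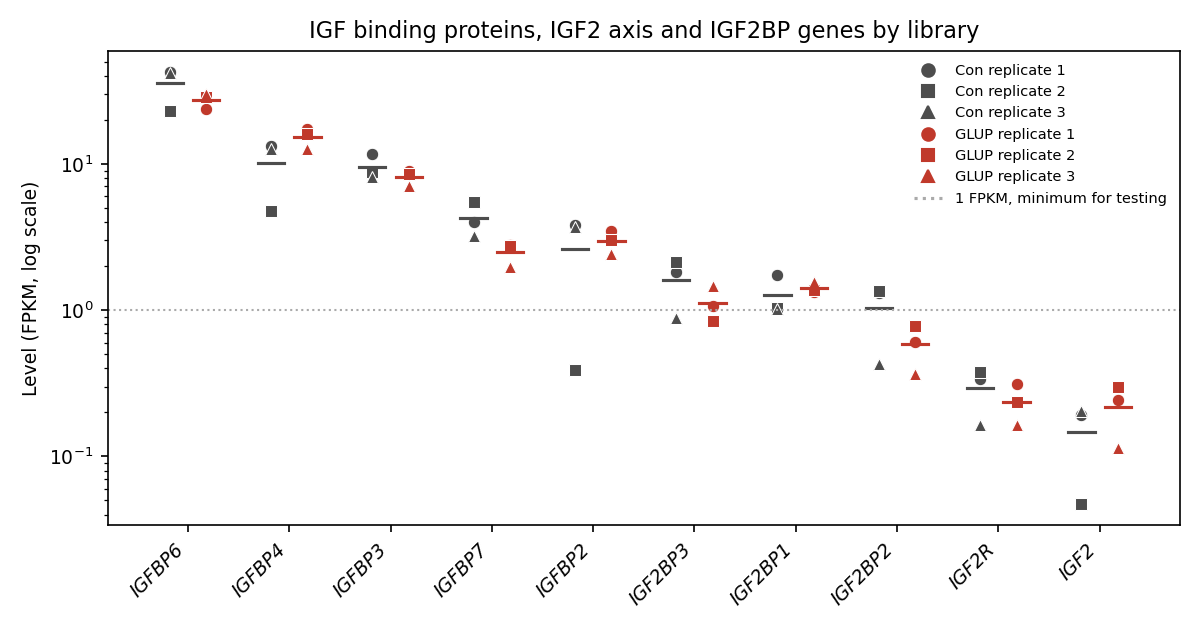
Level of each gene (vertical axis, FPKM, log scale) in each of the 6 libraries, with Con in grey, GLUP in red, a marker shape for the replicate number and a short line at each group mean. The binding protein genes span IGFBP6 at up to 42.2 FPKM down to IGFBP2, whose Con replicate 2 sits alone at 0.386, and IGF2R and IGF2 lie below the dotted line at 1 FPKM in every library.

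The 10 genes differed far more in level than between groups. On the FPKM scale, the mean over the 6 libraries was 31.6 for IGFBP6, 12.7 for IGFBP4, 8.86 for IGFBP3, 3.37 for IGFBP7 and 2.79 for IGFBP2. It was 1.37 for IGF2BP3, 1.34 for IGF2BP1, 0.807 for IGF2BP2, 0.265 for IGF2R and 0.183 for IGF2. Among all tested genes, IGFBP6 stood at the 84.4th percentile of level and IGF2BP1 at the 12.4th. Between neighbours in this order, the library ranges were apart for IGFBP6 over IGFBP4 and for IGFBP3 over IGFBP7, and overlapped for each other neighbouring pair. The order was thus a group of abundant binding proteins, then IGFBP7 and IGFBP2, then the IGF2BP genes, with the ligand and its scavenging receptor at the bottom.

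IGF2 (ENSG00000167244, chromosome 11, 2150342 to 2179621, minus strand, GRCh37) was barely detected. Its level was 0.193, 0.0473 and 0.203 FPKM in Con replicates 1 to 3 and 0.241, 0.30 and 0.114 FPKM in GLUP replicates 1 to 3. The groups overlapped, and Con replicate 2 was the lowest library. On the log2(FPKM + 1) scale used for all fold changes here, GLUP differed from Con by 0.09 with a 95% interval of -0.17 to 0.34 (limma, adjusted p = 0.679), and ran from 0.02 to 0.65 over the alternatives. For IGF2, as for IGF2R and IGF2BP2, these values came from the fit to all genes above 0 in any library. The read-through gene INS-IGF2 and the antisense gene IGF2-AS, which share the locus, were listed at 0 in every library.

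IGF2R (ENSG00000197081, chromosome 6, 160390114 to 160534539, plus strand) was read at 0.340, 0.380 and 0.164 FPKM in Con and 0.311, 0.234 and 0.163 FPKM in GLUP. The third replicate was the lowest in each group and the groups overlapped. Its log2 fold change was -0.06 (95% interval -0.36 to 0.23, limma adjusted p = 0.787). At levels this far below 1 FPKM, log2(FPKM + 1) compresses any change, so neither gene's interval bounds its fold on the linear scale.

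IGFBP3 (ENSG00000146674, chromosome 7, 45951844 to 45961473, minus strand), the main carrier of IGFs in blood and the member with a known link to TEAD, showed no change that could be told from the spread. It was at 11.8, 8.81 and 8.07 FPKM in Con and at 8.96, 8.54 and 7.0 FPKM in GLUP. Con replicate 1 was the highest library, and the other Con libraries lay within the GLUP range. The means were 9.54 ± 1.95 FPKM in Con against 8.17 ± 1.04 FPKM in GLUP (SD over 3 libraries each), for a log2 fold change of -0.19 with an SE of 0.28 and a 95% interval of -0.82 to 0.44 (limma, adjusted p = 0.670). Since all tested genes had a median of -0.23, IGFBP3 relative to that median was at 0.04. Its log2 fold change turned to 0.07 with a trimmed mean of log ratios, 0.09 with quantile normalization and 0.07 when centred on the median. Removing the trend in GC content and length also moved the median, to 0.0072, but there IGFBP3 stayed negative, at -0.11. Leaving out Con replicate 1 brought it to -0.05.

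Other genes known as TEAD targets had other values in the same libraries. CCN1, a matricellular protein, was lower in every GLUP library than in any Con library, at 1.68 ± 0.296 FPKM in Con against 0.576 ± 0.20 FPKM in GLUP (SD over 3 libraries each). AXL, a receptor tyrosine kinase, was at 16.7 ± 6.93 FPKM in Con against 5.13 ± 1.62 FPKM in GLUP (SD over 3 libraries each), and CCN2 at 0.577 ± 0.402 FPKM in Con against 0.12 ± 0.0392 FPKM in GLUP (SD over 3 libraries each), also with no overlap. Of all genes tested, 22.7% were likewise lower in GLUP with no overlap. None of the 3 passed limma's adjusted threshold, with adjusted p of 0.194 for CCN1 and 0.194 for AXL. CCN2 was under the minimum for testing, and its limma adjusted p of 0.589 came from the fit to all genes above 0 in any library. Whether IGFBP3 differed from these 3 genes was not tested.

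The sequences just upstream of the starts of IGFBP3 and CCN2 are shown because TEAD factors bind the letters GGAATG, which the other strand spells as CATTCC, and the start of IGFBP3 was without them. In the 250 bases before the start, IGFBP3 held 0 copies of GGAATG on either strand and 2 of GGGCGG, the letters of the SP1 box that the other strand spells as CCGCCC, and CCN2 held 3 copies of each. IGFBP6 held 1 copy of GGAATG, which begins 101 bases before its start. Among 35116 windows of the same length, 11.9% held GGAATG and 42.6% held GGGCGG. The sequences are those of RefSeq on GRCh38.p14, a later build than that of the gene positions given here, written 5′ to 3′ on the strand of the gene with both motifs in capitals. For IGFBP3 the whole window is chr7:45921273-45921522, minus strand, for CCN2 a stretch of 120 bases is chr6:131951433-131951552, minus strand, and for IGFBP6 a stretch of 120 bases is chr12:53097547-53097666, plus strand.
IGFBP3: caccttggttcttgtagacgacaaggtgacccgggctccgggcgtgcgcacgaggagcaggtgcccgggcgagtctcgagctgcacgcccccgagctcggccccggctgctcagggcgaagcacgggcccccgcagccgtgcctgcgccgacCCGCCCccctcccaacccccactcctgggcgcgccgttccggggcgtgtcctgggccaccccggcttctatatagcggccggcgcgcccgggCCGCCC
CCN2: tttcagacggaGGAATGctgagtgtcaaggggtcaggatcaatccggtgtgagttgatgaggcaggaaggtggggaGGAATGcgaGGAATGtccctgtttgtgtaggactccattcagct
IGFBP6: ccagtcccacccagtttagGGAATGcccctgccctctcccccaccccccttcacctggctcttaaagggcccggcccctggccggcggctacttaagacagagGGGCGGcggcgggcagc
RefSeq windows were matched for 7 of the 10 genes, all but IGFBP7, IGF2 and IGF2BP1, and gave 10 windows in all. GGAATG was in 2 of the 10, that of IGFBP6 and 1 of the windows of IGF2BP2, and GGGCGG was in 7. These are matches of letters, which say nothing about binding, and known TEAD sites often lie farther away in enhancers.

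IGFBP6 (ENSG00000167779, chromosome 12, 53491220 to 53496129, plus strand), which binds IGF2 in preference to IGF1, was the most abundant of the binding protein genes in every library. It was at 42.2, 22.8 and 41.7 FPKM in Con and 23.6, 28.7 and 30.2 FPKM in GLUP. Con replicates 1 and 3 were above all GLUP libraries, and Con replicate 2 was below all of them. The means were 35.6 ± 11.1 FPKM in Con against 27.5 ± 3.46 FPKM in GLUP (SD over 3 libraries each), for a log2 fold change of -0.32 (SE 0.33, limma adjusted p = 0.551). Without Con replicate 2 the log2 fold change was -0.60, and it was -0.69 after a trend in GC content and transcript length had been removed from each library. It came close to 0 under the other scalings that moved the median of all genes toward 0. These gave -0.038 with a trimmed mean of log ratios, -0.073 with quantile normalization and -0.051 when centred on the median. Its sign was negative in 19 of 19 alternative settings, although the other minimums, the eBayes settings and the replicate block cannot change the estimate.

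IGFBP4 (ENSG00000141753, chromosome 17, 38599702 to 38613977, plus strand), which restrains IGF action and is cut by the protease PAPPA, had the higher mean in GLUP. It was at 13.2, 4.78 and 12.6 FPKM in Con and 17.2, 15.9 and 12.6 FPKM in GLUP. Con replicate 2 was far below the rest, and GLUP replicate 3 lay within the Con range, so the groups overlapped. The means were 10.2 ± 4.68 FPKM in Con against 15.2 ± 2.37 FPKM in GLUP (SD over 3 libraries each), for a log2 fold change of 0.64 (SE 0.38, 95% interval -0.22 to 1.49, limma adjusted p = 0.315). Its sign was positive in 19 of 19 alternatives, but the other minimums, the eBayes settings and the replicate block cannot change the estimate. Its size was 0.22 without Con replicate 2 and 0.28 with the trend in GC content and length removed.

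IGFBP2 (ENSG00000115457, chromosome 2, 217497551 to 217529159, plus strand), a binding protein often abundant in tumours, had a higher mean in GLUP that rested on a single Con library. It was at 3.79, 0.386 and 3.67 FPKM in Con and 3.48, 2.99 and 2.42 FPKM in GLUP. Con replicate 2 was far below all others, and the remaining Con libraries were above all GLUP libraries. GLUP differed from Con by a log2 fold change of 0.33 (SE 0.44, limma adjusted p = 0.648), and its sign turned to -0.26 without Con replicate 2 and to -0.12 with the trend in GC content and length removed.

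IGFBP7 (ENSG00000163453, chromosome 4, 57896939 to 57976551, minus strand), a matrix-associated relative that binds IGFs weakly and also binds insulin, was the gene of the 10 whose groups did not overlap. It was at 4.0, 5.47 and 3.22 FPKM in Con and 2.77, 2.76 and 1.98 FPKM in GLUP. Every GLUP library lay below every Con library, with Con replicate 3 the nearest. The means were 4.23 ± 1.14 FPKM in Con against 2.50 ± 0.452 FPKM in GLUP (SD over 3 libraries each), and the log2 fold change was -0.56 (SE 0.27, 95% interval -1.17 to 0.041, limma adjusted p = 0.250).

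The value for IGFBP7 missed the threshold in each of the 19 alternative settings, in which the log2 fold change ran from -0.74 to -0.30 and the limma adjusted p from 0.0809 to 0.589. An exact permutation test gave p = 0.1, the smallest that 3 against 3 allows. With the trend in GC content and length removed, the log2 fold change was -0.58, so it moved little with that step. The 3′ end of the IGFBP7 gene overlaps POLR2B, an RNA polymerase II subunit gene on the other strand, by 386 bases. POLR2B itself averaged 3.43 FPKM in Con and 1.68 FPKM in GLUP. Counting by strand is not given in the sources used here, so reads of these genes could not be told apart where they overlap.

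**Figure D2:**
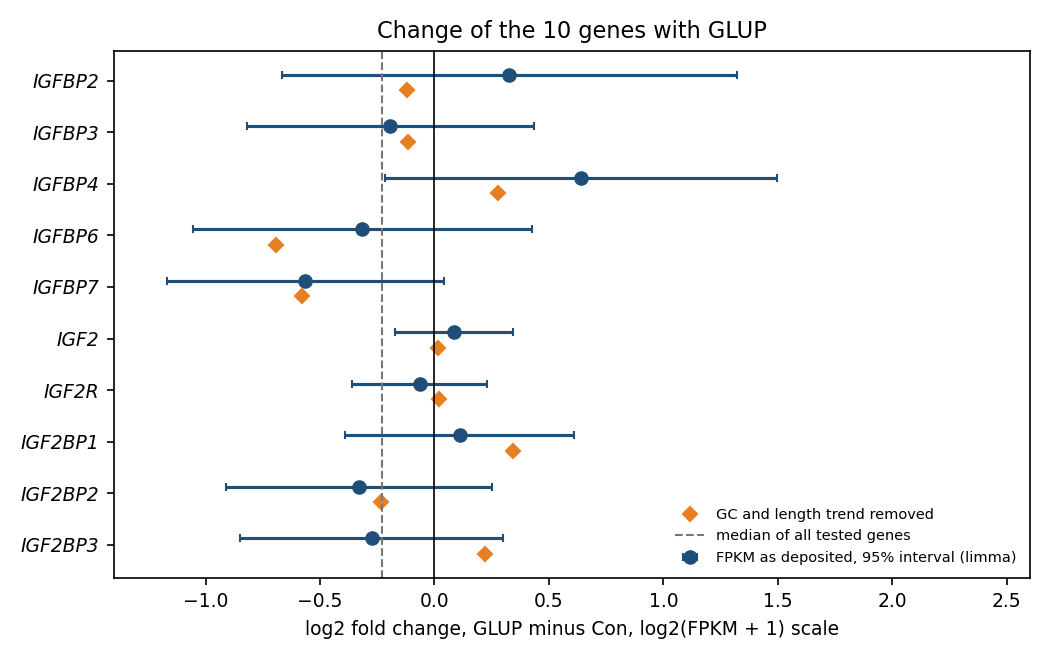
Change of each of the 10 genes (horizontal axis, log2 fold change, GLUP minus Con, on the log2(FPKM + 1) scale) with blue points and bars for the limma estimate and its 95% interval and orange diamonds for the estimate after removal of a trend in GC content and transcript length. Every interval includes 0, and the diamonds of IGFBP2, IGF2R and IGF2BP3 lie on the other side of 0 from the blue point.

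The makeup of the binding protein pool was described next, as shares within a library do not depend on its scaling. Summed over the 5 IGFBP genes, the level was 75.0, 42.3 and 69.2 FPKM in Con and 56.0, 59.0 and 54.2 FPKM in GLUP. The GLUP sums lay close together, between the low Con replicate 2 and the other Con libraries, with means of 62.2 ± 17.4 FPKM in Con against 56.4 ± 2.40 FPKM in GLUP (SD over 3 libraries each). IGFBP6 supplied 56.3%, 54.0% and 60.3% of the sum in Con and 42.1%, 48.7% and 55.7% in GLUP. IGFBP4 supplied 17.6%, 11.3% and 18.1% in Con and 30.7%, 27.0% and 23.3% in GLUP. The share of IGFBP4 was higher in every GLUP library than in any Con library, whereas the shares of IGFBP6 overlapped. IGFBP3 supplied 11.7% to 20.8% in Con and 12.9% to 16.0% in GLUP.

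**Figure D3:**
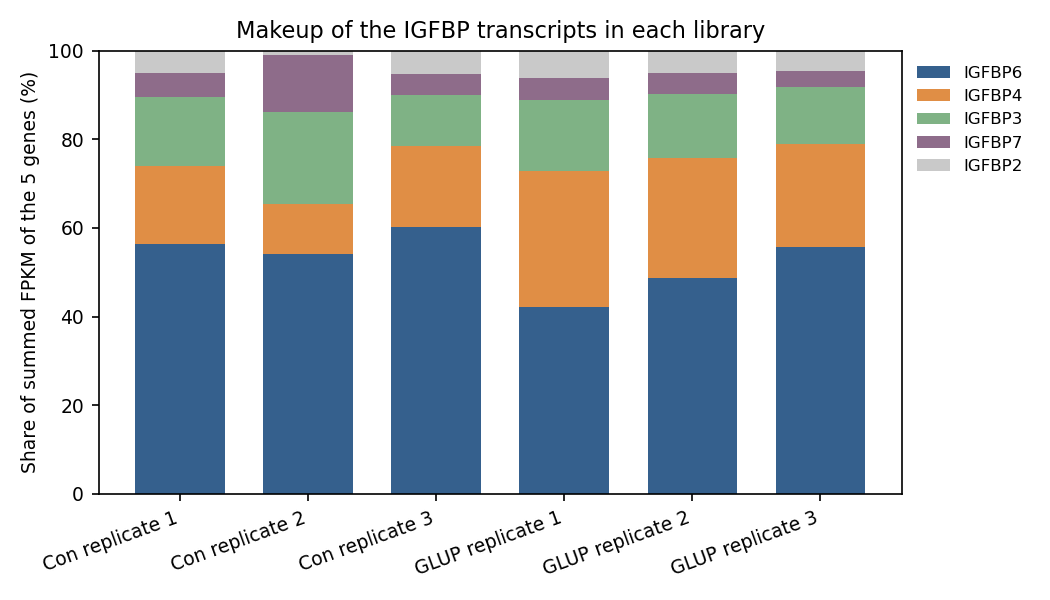
Share of each IGFBP gene (vertical axis, percent of the summed FPKM of the 5 genes) in each library (horizontal axis). The orange band of IGFBP4 is 11.3% to 18.1% in the Con libraries and 23.3% to 30.7% in the GLUP libraries, and the purple band of IGFBP7 is widest in Con replicate 2, at 12.9%.

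Ratios between members within a library were compared with an exact permutation test, two-sided, whose smallest p is 0.1 here. Every log2 ratio here was taken after 1 FPKM had been added to both genes, which draws ratios of low genes toward 0. The log2 ratio of IGFBP3 to IGFBP6 was -1.76, -1.28 and -2.24 in Con and -1.30, -1.64 and -1.96 in GLUP, with each group spread across the other. The difference was 0.12 (exact permutation p = 0.8), and 0.58 with the trend in GC content and length removed. The log2 ratio of IGF2BP2 to IGF2BP3 was -0.37 ± 0.066 (SD, n = 3) in Con and -0.42 ± 0.40 (SD, n = 3) in GLUP, a difference of -0.05 (exact permutation p = 0.9). Both genes were at such low levels that the added 1 FPKM compressed these ratios and their SDs.

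All 10 pairs of IGFBP genes were then examined, a choice made after their values had been seen. In 3 of the 10 pairs the groups did not overlap, and IGFBP4 was a partner in all 3, so that the 3 are not independent of each other. How often other pairs of genes do so was not computed. Its log2 ratio to IGFBP6 was -1.61, -2.04 and -1.66 in Con and -0.44, -0.81 and -1.20 in GLUP. Every GLUP library was above every Con library, with a difference of 0.95, and of 0.97 with the trend in GC content and length removed. Its log2 ratio to IGFBP7 was higher in GLUP by 1.20, and the log2 ratio of IGFBP3 to IGFBP4 was lower, with a difference of -0.83. These 2 differences became 0.86 and -0.39 with that trend removed. Each had an exact permutation p of 0.1, not adjusted for the 10 pairs, so none could pass 0.05 in this design.

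IGF2BP1 (ENSG00000159217, chromosome 17, 47074747 to 47133507, plus strand), an oncofetal RNA-binding protein that shields MYC and other mRNAs from decay, was just above the minimum for testing. It was at 1.74, 1.04 and 1.01 FPKM in Con and 1.33, 1.37 and 1.57 FPKM in GLUP. All GLUP libraries lay inside the Con range. Its log2 fold change was 0.11 (SE 0.22, 95% interval -0.39 to 0.61, limma adjusted p = 0.767). It was 0.35 with the trend in GC content and length removed, 0.37 when centred on the median and 0.03 without Con replicate 3. The gene overlaps a long noncoding RNA on the other strand, ENSG00000250838, by 108 bases. That RNA reached 2.87 FPKM, above any value of IGF2BP1.

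IGF2BP2 (ENSG00000073792, chromosome 3, 185360918 to 185542830, minus strand), the family member that adult tissues also express, was at 1.30, 1.36 and 0.426 FPKM in Con and 0.607, 0.780 and 0.366 FPKM in GLUP. Con replicates 1 and 2 were above all GLUP libraries, and Con replicate 3 was among them. Its log2 fold change was -0.33 (SE 0.24, 95% interval -0.91 to 0.25, limma adjusted p = 0.622). It was -0.57 without Con replicate 3 (limma adjusted p = 0.209), -0.70 with a pseudocount of 0.01 FPKM and -0.06 when centred on the median, and its limma adjusted p ran from 0.209 to 0.811 over the alternatives.

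IGF2BP3 (ENSG00000136231, chromosome 7, 23349828 to 23510110, minus strand), a fetal protein that reappears in many carcinomas, was at 1.81, 2.12 and 0.885 FPKM in Con and 1.06, 0.848 and 1.45 FPKM in GLUP. As for IGF2BP2, Con replicate 3 lay apart from the other Con libraries and among the GLUP libraries. The log2 fold change was -0.27 (SE 0.26, limma adjusted p = 0.504), and its sign turned to 0.22 with the trend in GC content and length removed, whereas leaving out Con replicate 3 gave -0.49.

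Values of IGF2BP3 are uncertain for reasons of position and sequence. The gene overlaps MALSU1, a mitochondrial ribosome factor gene on the other strand, by 1521 bases, and MALSU1 was far more abundant, at 22.8 to 70.9 FPKM. The level of MALSU1 was 60.01 FPKM on average in Con and 27.9 FPKM in GLUP. Of the IGF2BP3 transcript, 40.7% is shared with processed pseudogenes at 95% identity or more, and of the IGF2BP2 transcript 25.0%, although those copies did not exceed 0.122 FPKM. The part of these neighbours in the values was not tested.

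Summed over the 3 IGF2BP genes, the level was 3.90 ± 1.38 FPKM in Con against 3.13 ± 0.224 FPKM in GLUP (SD over 3 libraries each). IGF2BP1 supplied 35.9%, 22.9% and 43.6% of the sum in Con and 44.3%, 45.7% and 46.2% in GLUP. The GLUP shares were all higher, though GLUP replicate 1 exceeded Con replicate 3 by less than the Con replicates differed among themselves.

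The order of the libraries for the 10 genes went with base composition, as it did across all genes. The 4 genes with a transcript GC content above 60%, namely IGFBP2 (67.4%), IGFBP6 (64.7%), IGFBP4 (62.6%) and IGF2 (60.5%), all had their lowest value in Con replicate 2. The other 6, from 40.5% in IGF2BP3 to 52.1% in IGFBP7, had their highest value in Con replicate 1 or 2, and 4 of them in Con replicate 2. Of the 4 genes above 60%, 2 were also highest in Con replicate 1 or 2, but 0 in Con replicate 2. Over the 10 genes, the Spearman correlation of GC content with the deviation of a library from the mean of each gene was negative in Con replicate 2 (-0.72) and positive in Con replicate 3 (0.98), as a description over points that share their libraries. In Con replicate 1 it reached 0.22, and in GLUP it ranged from -0.01 to 0.46. Over 7388 tested genes the 3 Con libraries, by replicate number, had correlations of -0.34, -0.59 and 0.45, and the 3 GLUP libraries of 0.43, 0.54 and 0.34. The opposite signs of Con replicates 2 and 3 were thus not particular to the 10 genes, and Con replicate 1 had another sign over all genes than over the 10. The part of base composition in the group differences was not tested beyond the removal of its trend.

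**Figure D4:**
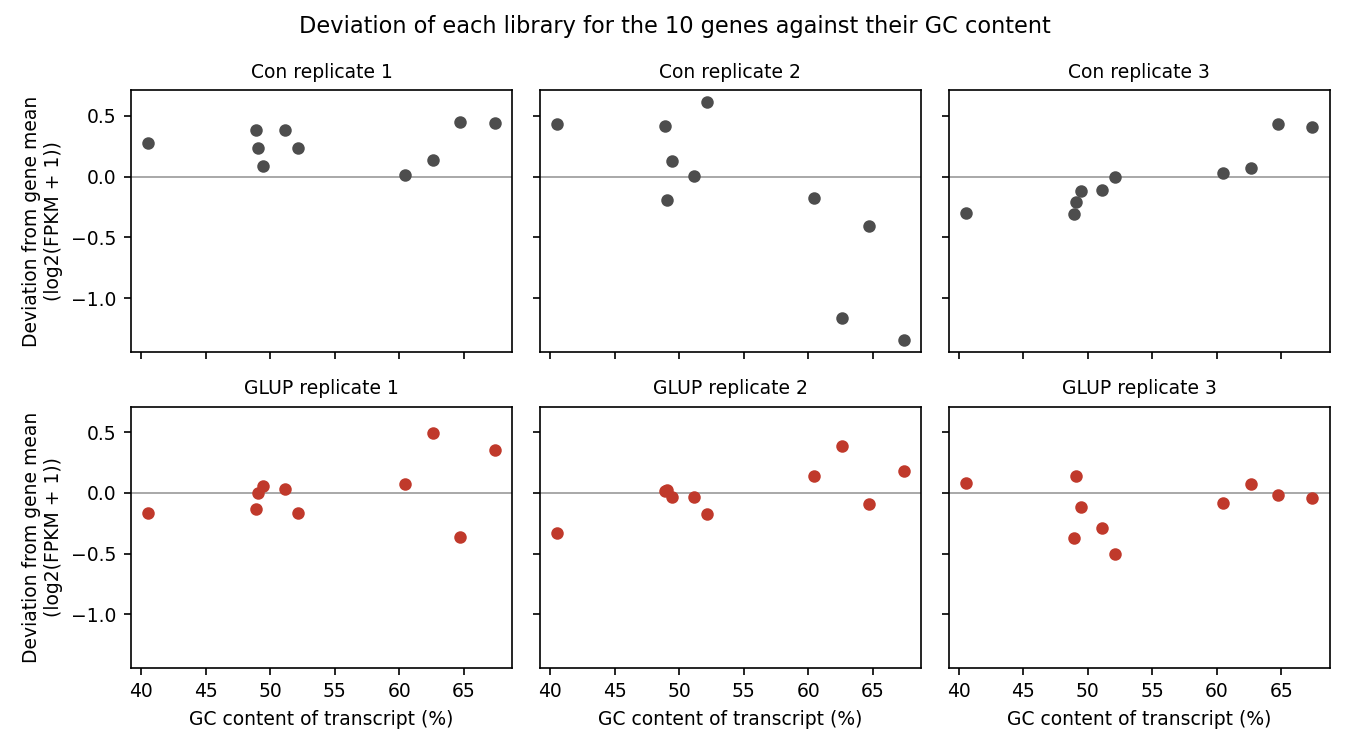
Deviation of each library from the gene mean (vertical axis, log2(FPKM + 1)) against the GC content of the transcript (horizontal axis, percent), with a panel for each library and a point for each of the 10 genes. In Con replicate 2 the GC-rich genes lie below the line at 0, in Con replicate 3 the points rise with GC content, and in the GLUP panels the Spearman correlation over the 10 points is -0.01 to 0.46.

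The genes whose levels followed IGFBP3 most closely over the 6 libraries were TBCE, a tubulin-folding cofactor (Pearson r = 0.998), ARSK, a lysosomal sulfatase (0.992), HMBOX1, a homeobox protein (0.990), ARL2BP, a binding partner of the ARL2 GTPase (0.990), and GINM1, a membrane protein (0.986). Like IGFBP3, each of the 5 was highest in Con replicate 1 and lowest in GLUP replicate 3. Of 7405 genes, 124 had a correlation of at least 0.9 with IGFBP3 and 31 of at least 0.95. TBCE, HMBOX1 and ARL2BP overlap other genes.

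The other genes of the IGF pathway were taken from 8 lists by their known roles, 71 genes in all. Of these, 8 were at 0 in every library, among them IGFBP1, INS and IRS2, and 28 passed the minimum for testing. None of the 28 had an adjusted p under 0.05 in limma. At an unadjusted p under 0.05, 2 were higher in GLUP and 5 lower, 25.0% of the 28 against 21.7% of all genes tested. The groups did not overlap for 1 gene higher in GLUP and 9 lower, 3.57% and 32.1% of the 28, beside 7.55% and 22.7% of all genes tested. Their median log2 fold change was -0.25, close to the -0.23 of all tested genes, and was -0.0012 with the trend in GC content and length removed.

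Among ligands and receptors, the transcript of the receptor through which IGF2 chiefly signals was scarce. IGF1R was at 0.121 ± 0.0446 FPKM in Con against 0.233 ± 0.154 FPKM in GLUP (SD over 3 libraries each), and IGF1 was at most 0.235 FPKM. INSR, the insulin receptor, was at 0.987, 4.99 and 0.938 FPKM in Con and 0.589, 0.559 and 0.380 FPKM in GLUP. Every GLUP library was below every Con library, and Con replicate 2 alone set the height of the Con mean. The log2 fold change of INSR was -0.92 (SE 0.39, limma adjusted p = 0.218), and -0.38 without Con replicate 2.

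Among the other binding proteins and their proteases, 0 of the 4 tested passed at an unadjusted p under 0.05, beside 21.7% of all genes tested. TMEM219, a cell death receptor for IGFBP3, was at 29.9, 5.05 and 28.3 FPKM in Con and 26.1, 21.5 and 23.9 FPKM in GLUP. As for IGFBP2, a single low value in Con replicate 2 set its log2 fold change of 0.49, which was -0.28 without that library. IGFBPL1, an IGFBP-like protein, was at 6.82 ± 1.30 FPKM in Con against 4.50 ± 1.86 FPKM in GLUP (SD over 3 libraries each), and HTRA1, a secreted protease that cuts IGFBPs, at 2.6 ± 1.52 FPKM in Con against 1.17 ± 0.208 FPKM in GLUP (SD over 3 libraries each), both with overlap.

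Downstream of the receptors, no gene passed the adjusted threshold either. The adaptors GRB2 (log2 fold change 0.08), SHC1 (0.11) and GRB10 (-0.18) were all low, with means of 0.812 to 2.15 FPKM per group. In the PI3K-AKT-MTOR branch, 0 of 5 tested genes passed at an unadjusted p under 0.05, beside 21.7% of all genes tested. RHEB, the GTPase that switches on MTOR, was at 131 ± 45.8 FPKM in Con against 81.2 ± 2.51 FPKM in GLUP (SD over 3 libraries each) with no overlap, though 32.6% of its transcript is shared with pseudogenes and other loci, and AKT1 (0.51) and the MTOR subunit MLST8 (1.04) had positive log2 fold changes with overlap, which were 0.08 and 0.33 without the low Con replicate 2. The log2 fold change of RHEB was -0.63, and -0.36 without Con replicate 1.

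In the RAS-MAPK branch, MAP2K2, a MAPK kinase, had the highest log2 fold change of the 28, at 1.5 (SE 0.51, limma adjusted p = 0.198). It was at 3.27, 0.658 and 6.34 FPKM in Con and 14.2, 9.80 and 6.22 FPKM in GLUP. GLUP replicate 3 and Con replicate 3 were nearly level, so the groups overlapped. The difference shrank to 0.92 when Con replicate 2 was left out and to 1.08 with the trend in GC content and length removed, and 69.5% of its transcript is shared with a near-identical copy. HRAS had a log2 fold change of -0.48, with no overlap, which was -0.87 with that trend removed and -0.21 when centred on the median. Among genes of mannose 6-phosphate sorting, whose products tag lysosomal enzymes and carry them along the route that IGF2R serves, the values were 0.15 for M6PR, 0.33 for GNPTG and -0.03 for GNPTAB, all with overlap. GRB2, SHC1, MLST8, RHEB, M6PR, GNPTG and GNPTAB each overlap another gene, which leaves their levels uncertain to that degree.

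Partners of the IGF2BP proteins in messenger ribonucleoproteins were lower on average in GLUP in 5 of 5 cases, as were 65.5% of all tested genes. Of these partners, 3, YBX1, HNRNPU and ELAVL1, were below the unadjusted threshold, a rule by which 17.2% of all tested genes were lower. HNRNPU was at 20.5, 28.6 and 13.0 FPKM in Con and 11.2, 9.32 and 8.46 FPKM in GLUP. All GLUP libraries were below all Con libraries, with a log2 fold change of -0.97 (SE 0.34, limma adjusted p = 0.198). YBX1 was at 45.3, 146 and 39.4 FPKM in Con and 31.3, 26.3 and 24.9 FPKM in GLUP, a log2 fold change of -1.20 (SE 0.47, limma adjusted p = 0.202). Con replicate 2 held the height of the Con mean for YBX1, whose log2 fold change was -0.61 without it, and 32.7% of its transcript is shared with pseudogenes. With the trend in GC content and length removed, the log2 fold change of HNRNPU was -0.52. SYNCRIP had a log2 fold change of -0.62 with overlap, and -0.12 with the trend removed, with 59.8% of its transcript shared with a copy elsewhere, and HNRNPU overlaps COX20 on the other strand. The median of the 5 partners was -0.68, and -0.36 with the trend in GC content and length removed. With that trend removed, the log2 fold change of the partner DHX9 turned from -0.27 to 0.15.

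Among mRNAs that IGF2BP proteins are known to bind, 1 of the 3 tested, ACTB, was below the unadjusted threshold, beside 21.7% of all genes tested. ACTB, whose zipcode is the classic target of IGF2BP1, was at 524, 323 and 670 FPKM in Con and 1686, 929 and 795 FPKM in GLUP. Every GLUP library was above every Con library, as for 7.55% of all genes tested. The log2 fold change of ACTB was 1.15 (SE 0.37, limma adjusted p = 0.194), and 1.00 with the trend in GC content and length removed. MYC (-0.23) and CD44 (-0.08) overlapped between groups. The signs of both turned with the trimmed mean of log ratios, with quantile normalization and when centred on the median. With the trend in GC content and length removed, MYC was at -0.0065 and CD44 at 0.30.

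The library that most changed the number of genes called was Con replicate 3. Without it, limma called 1367 of 7406 genes (18.5%), and of the IGF pathway genes MAP2K2 (log2 fold change 1.99, limma adjusted p = 0.0366) and HNRNPU (-1.25, limma adjusted p = 0.0327) were among them. The number of the 10 members called was 0 in that fit too, with IGFBP7 the nearest, at a log2 fold change of -0.71 and a limma adjusted p of 0.0809.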

How the data were processed

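Total RNA of the 6 libraries was sequenced on an Illumina instrument, and the authors deposited FPKM per gene in 1 table. Per the labels, the submitters' processing notes name HISAT2, Cufflinks, RSEM and GRCh38.p10, while the identifiers of the table carry the suffix of a GENCODE lift to GRCh37. Positions here are those of GENCODE 44 on GRCh37. FPKM holds no read counts, so the depth is unknown and count tests were not used.

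The 62492 rows gave 62443 genes, after 49 chromosome Y copies at 0 had been joined to their counterparts. Values were transformed to log2(FPKM + 1). The 7406 genes that averaged 1 FPKM or more were fitted with limma 3.58.1 (eBayes with trend, two-sided, Benjamini-Hochberg over all genes tested) in R 4.3.3, with no covariates. For members and other named genes under that limit, values came from an unfiltered fit of the same form. Named genes were the 10 members, the 3 most abundant genes of each pathway list, any pathway gene called, the 5 genes nearest to IGFBP3, and CCN1, CCN2 and AXL. Of the genes this rule names, 1 is not reported here. Members, lists and tests were chosen with earlier results of these data known. Group was taken from the sample titles. The labels do not say whether replicates came from separate cultures, so p-values measure the spread between these libraries. The GC content and length of the canonical transcript were fitted with a loess trend (span 0.5) in each library, without use of the groups. The alternatives were other pseudocounts, minimums, scalings and eBayes settings, the replicate block, removal of the GC content and length trend, and leaving out each library. Shared transcript sequence was found with blastn 2.17.0 (at least 95% identity over 100 bases).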

Additional observations from a re-analysis of the deposited data

How the results depend on the processing

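The number of the 10 members with an adjusted p under 0.05 was 0 in limma under each of 19 alternatives, and among pathway genes it was 0 except without Con replicate 3 (range 0 to 2 when a library was left out). Over all genes the count of 0 became 1 when 5 FPKM was required, 1 when eBayes had no trend, 2 with the trend in GC content and length removed, and 0 to 1367 when a library was left out. Leaving out Con replicate 2 gave 3, and leaving out Con replicate 3 gave 1367. Same-numbered libraries correlated at 0.13, -0.01 and -0.17 in their deviations from the group means, and differently numbered ones at -0.19 to 0.18. Deviations within a group are bound to cancel out, so these values do not settle whether the replicate numbers pair the libraries. With the replicate block the count was 1, and 1 with the block and the GC content and length trend removed together, and the block changed no call among the members or pathway genes.

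Of the member values under the alternatives, 178 kept their sign and 12 turned. The other minimums, the eBayes settings and the replicate block cannot change an estimate, so the values that kept their sign include these. With the trend in GC content and length removed, with or without the block, the log2 fold change was -0.12 for IGFBP2, 0.020 for IGF2R, 0.22 for IGF2BP3, 0.25 for IGF1, 0.16 for GNPTAB and 0.30 for CD44. With the trimmed mean of log ratios it was 0.066 for IGFBP3, 0.00066 for IGF2R, 0.047 for GNPTAB, 0.025 for MYC and 0.12 for CD44. With quantile normalization it was 0.091 for IGFBP3, 0.018 for GNPTAB, 0.061 for MYC and 0.12 for CD44. Centred on the median it was 0.072 for IGFBP3, 0.20 for IGF2R, 0.24 for IGF1, 0.088 for GRB10, 0.23 for GNPTAB, 0.039 for MYC and 0.18 for CD44. With a pseudocount of 0.01 it was 0.68 for IGF1. Except for the pseudocount, these settings moved the median of all genes from -0.23 to between -0.039 and 0.034. With the pseudocount of 0.01 that median was -0.30. When a library was left out, the log2 fold change ran from -0.26 to 0.63 for IGFBP2, -0.077 to 0.075 for IGF1, -0.28 to 0.89 for TMEM219, -0.22 to 0.24 for GRB2, -0.011 to 0.31 for SHC1, -0.034 to 0.26 for M6PR, -0.14 to 0.090 for GNPTAB, -0.45 to 0.041 for MYC and -0.13 to 0.0084 for CD44. The log2 ratio of IGFBP3 to IGFBP6 ran from -0.12 to 0.36 and that of IGF2BP2 to IGF2BP3 from -0.24 to 0.16. The cause of these turns was not tested. With 3 libraries a group, an exact permutation test cannot go below 0.1, and the members under 1 FPKM were too low for their folds to be read.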

Other observations

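A few further values concern the IGF2 axis. IGFBP7 and IGFBP3, both binding protein genes, had a ratio that varied less among the GLUP libraries than among the Con libraries. The log2 ratios had 1 FPKM added to each gene, which can narrow their spread for genes at a few FPKM. The SD of the log2 ratio of IGFBP3 to IGFBP7 was 0.041 (n = 3) in GLUP against 0.383 (n = 3) in Con. That of IGFBP4 to IGFBP7 was 0.053 (n = 3) against 1.02 (n = 3) in Con. Such a small spread was not particular to these pairs. Every IGFBP pair without IGFBP6 had an SD of 0.041 to 0.083 in GLUP, and the pairs with IGFBP6 had 0.33 to 0.38. The 3 Con libraries differed among themselves more than the GLUP libraries did for the IGFBP sum (SD 17.4 against 2.40 FPKM, n = 3 each) and for the IGF2BP sum (SD 1.38 against 0.224 FPKM, n = 3 each). These pairs and sums were chosen after their values had been seen, and no test of the spread was run.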
